A study of Homo sapiens with 24 samples.

Results

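The comparison described here is the difference between 2 leukemia cell lines in their response to L-ascorbic acid (LAA, vitamin C), computed for each gene as the LAA effect in THP-1 minus the LAA effect in MOLM-13 on the log2 scale. It used 12 of the 24 libraries of the series. They were THP-1 with LAA, THP-1 with vehicle, MOLM-13 with LAA and MOLM-13 with vehicle, with 3 libraries each. Of 58735 genes in the count table, 16181 had enough counts to be tested. Both lines are established human acute myeloid leukemia lines that carry the MLL-AF9 fusion (KMT2A-MLLT3), so the fusion is shared by every group. Treated cells received LAA at 250 µM, dissolved in PBS, and control cells received the vehicle, PBS with DMSO. Both lasted 72 h. The other 12 libraries held olaparib, an inhibitor of poly-ADP-ribose polymerases, at 1 µM alone or with LAA. The labels do not say whether replicates were separate cultures, and p-values measure the spread between these libraries only.

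LAA is a cofactor of the TET enzymes, which oxidize methylated cytosine in DNA, and of many other dioxygenases. At high concentration in culture medium it also gives rise to hydrogen peroxide. Interferon-stimulated genes, which respond to cytosolic nucleic acid sensors and to secreted interferon, form one of the best known transcriptional programs of monocytic cells.

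Total counts in the 12 libraries ran between 19212564 and 25265870. Mitochondrially encoded genes took 7.31% ± 0.381 of counts with LAA and 7.09% ± 0.350 with vehicle in THP-1, and 7.58% ± 0.569 with LAA and 6.71% ± 0.0327 with vehicle in MOLM-13 (SD, n = 3 each). The 10 markers of leukemic myeloid cells were all detected in every group, with summed levels between 1340 and 1555 CPM (library-size-scaled counts after TMM scaling). Marker lists of epithelium and fibroblasts, of erythroid cells and megakaryocytes, of B cells, and of T and NK cells summed to no more than 19.3 CPM per list in any library. CD3E and KLRD1 were at 0 in all libraries of 3 groups, and HBB and PF4 in all 4 groups.

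The libraries labelled MOLM-13 did not hold a constant amount of line-specific RNA. In the olaparib libraries, which the comparison does not use, 16 genes had at most 2 counts over 3 THP-1 libraries and at least 30 over 3 MOLM-13 libraries. They lie on 13 chromosomes and include DLX5, EMD, MTAP, ZFP57 and HOXC4. Their summed level was 0.726 ± 0.344 CPM with LAA and 0.368 ± 0.0837 CPM with vehicle in THP-1. It was 5.24 ± 0.108 CPM with LAA and 25.4 ± 1.02 CPM with vehicle in MOLM-13 (SD, n = 3 each), so the LAA libraries held 20.6% of the vehicle level. The same genes summed to 4.67 ± 0.74 CPM in MOLM-13 libraries with both compounds and 19.4 ± 6.27 CPM in those with olaparib alone. In the reverse direction, 6 genes had at most 2 counts over the MOLM-13 olaparib libraries and at least 30 over the THP-1 ones. In MOLM-13 they summed to 1.98 ± 0.712 CPM with LAA and 1.13 ± 0.650 CPM with vehicle, where the groups overlapped. In THP-1 they summed to 3.20 ± 0.714 CPM with LAA and 2.71 ± 0.353 CPM with vehicle. Over 13739 genes, library pairs of different lines correlated at r between 0.983 and 0.991, and pairs of one group between 0.988 and 0.995. In bulk RNA, fewer cells of one type and less RNA per cell cannot be told apart. What lowered the 16 genes in the MOLM-13 LAA libraries was not tested. The cell line identity of the libraries labelled MOLM-13 is therefore in doubt, and it bears on every MOLM-13 effect and line difference given here. "MOLM-13" below means the libraries labelled so. For each called gene that is described, the THP-1 effect is given too, since it compares THP-1 libraries only. The filter, the scaling and the spread behind its p-value still came from the fit of all 12 libraries.

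**Figure D1:**
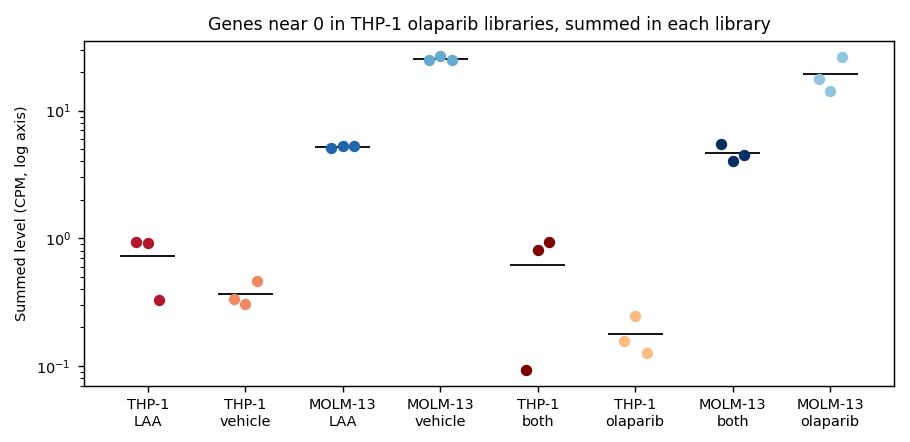
Summed level in each of the 24 libraries (CPM, log axis) of 16 genes that were nearly silent in the THP-1 olaparib libraries and expressed in the MOLM-13 olaparib libraries. Points are libraries and lines are means of 3. "Both" means LAA with olaparib. The 3 MOLM-13 LAA libraries lay between 5.12 and 5.33 CPM, and the 3 MOLM-13 vehicle libraries between 24.8 and 26.6 CPM.

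A total of 18 genes had an LAA effect that differed between the lines at an adjusted p under 0.05 (0.111% of genes tested; edgeR quasi-likelihood test, Benjamini-Hochberg adjustment). All 18 differences were positive, meaning that the log2 effect was higher in THP-1 than in MOLM-13. In the other direction edgeR called 0 genes (0%), and the smallest adjusted p there was 0.0880. DESeq2 called 39 genes in the positive direction and 9 in the negative one. With no filter on low counts edgeR called 63 positive and 40 negative, and without MOLM-13 LAA replicate 2 it called 27 and 10. Negative calls appeared in 8 of 23 alternatives. At an unadjusted p under 0.05 there were 1162 genes (7.18% of genes tested), the share against which such counts in the gene lists are to be read. The count of 18 was 37 without MOLM-13 LAA replicate 2, 36 without MOLM-13 LAA replicate 3 and 12 without THP-1 LAA replicate 3.

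LAA alone changed 143 genes in THP-1 (0.884%), 97 higher (0.599%) and 46 lower (0.284%). In MOLM-13 it changed 439 genes (2.71%), 199 higher (1.23%) and 240 lower (1.48%). Of the 18 genes, 16 were called lower with LAA in MOLM-13 and 4 were called higher with LAA in THP-1. LAA and vehicle libraries did not overlap for 17 of the 18 genes in MOLM-13, where 9.17% of all genes tested did not overlap with LAA higher and 9.71% with LAA lower. In THP-1 they did not overlap for 9, beside 10.1% of all genes with LAA higher and 9.62% with LAA lower. The vehicle libraries of the lines differed for 15 of the 18 (4.1% of all genes tested, 1.82% lower in THP-1), and the LAA libraries for 8 (3.25%, 1.16% lower in THP-1). Since both effects enter the difference, these counts describe the 18 genes and test nothing further. LYZ and TRIM22 were in both sets, and they were the only genes of 16181 that were called in opposite directions in the 2 lines. The THP-1 calls of both were lost in several alternatives, given with each gene below. Across all tested genes the effects in the lines correlated at Pearson's r = 0.193 and Spearman's rho = 0.254, a description over genes, which are not independent replicates.

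**Figure D2:**
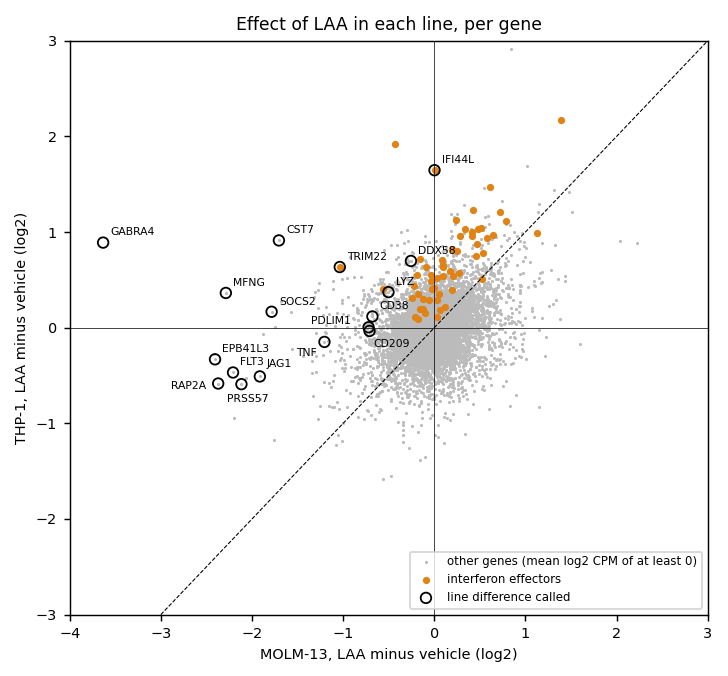
Effect of LAA on each gene in THP-1 (y axis, log2 of LAA over vehicle) against MOLM-13 (x axis, same unit). Grey points are other genes with a mean log2 CPM of at least 0, orange points the 56 tested interferon effectors and circles 17 of the 18 genes with a called line difference. All 17 circles lie above the dashed line of equal effects.

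Interferon effectors, the antiviral products of the interferon response, included 2 of the 18 genes, and DDX58 belonged to the sensors that start it. IFI44L encodes an interferon-induced protein that restricts viruses and lies at chr1:78619922-78646145 (hg38). DDX58 encodes RIG-I, the cytosolic sensor of viral RNA, at chr9:32455705-32526324. TRIM22, a ubiquitin ligase with antiviral activity, lies at chr11:5689689-5737089. The RefSeq promoters (GRCh38.p14, 250 bases before to 50 after the start) of IFI44L, RIG-I and the effector IFI27 are shown. They hold sequence matches that resemble the interferon-stimulated response element, the site of the interferon-activated transcription factor complex. Whether these matches are bound was not tested. Capitals mark matches to GAAANNGAAA or GAAANGAAA on either strand. Windows are chr1:78620198-78620497 on the plus strand, chr9:32526147-32526446 on the minus strand and chr14:94110486-94110785 on the plus strand.
IFI44L: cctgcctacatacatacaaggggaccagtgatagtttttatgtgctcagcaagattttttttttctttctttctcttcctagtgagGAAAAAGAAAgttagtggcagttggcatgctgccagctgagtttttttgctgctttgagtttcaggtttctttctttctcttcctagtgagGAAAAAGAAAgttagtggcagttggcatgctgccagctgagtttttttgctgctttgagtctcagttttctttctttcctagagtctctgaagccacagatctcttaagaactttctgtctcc
RIGI: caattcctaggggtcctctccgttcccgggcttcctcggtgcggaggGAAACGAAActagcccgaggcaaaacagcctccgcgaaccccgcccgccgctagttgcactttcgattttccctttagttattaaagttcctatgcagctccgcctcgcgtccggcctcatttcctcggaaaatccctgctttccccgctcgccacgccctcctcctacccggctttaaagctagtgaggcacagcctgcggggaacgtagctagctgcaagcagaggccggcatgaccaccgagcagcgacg
IFI27: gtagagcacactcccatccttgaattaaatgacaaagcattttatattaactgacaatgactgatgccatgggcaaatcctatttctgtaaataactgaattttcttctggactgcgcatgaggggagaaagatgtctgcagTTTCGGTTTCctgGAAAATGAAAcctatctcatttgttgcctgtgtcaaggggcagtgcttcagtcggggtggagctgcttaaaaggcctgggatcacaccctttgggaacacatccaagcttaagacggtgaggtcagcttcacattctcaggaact

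IFI44L held 2 GAAANNGAAA matches, IFI27 held 2, and RIG-I held 1 GAAANGAAA match. GAAANNGAAA was found in 29 of the 42 interferon effector promoters that had a RefSeq entry (69.0%) and in 1255 of 35114 promoters of that length (3.57%). GAAANGAAA was found in 14 of the 42 (33.3%), and in 3.12% of all promoters. Of the 18 genes with a called line difference 12 had a promoter entry, and 3 of these held either motif (25%), IFI44L, DDX58 and CD209. Either motif was present in 6.4% of all promoters.

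IFI44L had 26.3, 22.5 and 30.5 CPM in THP-1 with LAA, against 8.17, 8.80 and 8.34 CPM with vehicle. In MOLM-13 it had 1.43, 1.66 and 2.10 CPM with LAA, against 1.52, 2.21 and 1.55 CPM with vehicle. The treated THP-1 libraries lay above all others, and the MOLM-13 groups overlapped at a low level. IFI44L rose in THP-1 by 1.65 on the log2 scale (edgeR adjusted p = 1.27e-06), its MOLM-13 effect was 0.00 (edgeR adjusted p = 0.999), and the line difference was 1.64 ± 0.27 (SE; edgeR adjusted p = 0.00648).

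TRIM22 had 23.3, 23.5 and 27.3 CPM in THP-1 with LAA, against 17.7, 15 and 14.9 CPM with vehicle. MOLM-13 cells gave TRIM22 values of 5.22, 4.92 and 5.74 CPM with LAA, against 8.61, 12.4 and 11.8 CPM with vehicle. LAA and vehicle libraries did not overlap in either line, and the order was reversed between them. The log2 effect was 0.63 in THP-1 (edgeR adjusted p = 0.0183) and -1.04 in MOLM-13 (edgeR adjusted p = 0.000336), a line difference of 1.67 ± 0.20 (SE; edgeR adjusted p = 0.000186). Leaving out vehicle replicate 2, vehicle replicate 3 or LAA replicate 3 of THP-1 ended the THP-1 call (edgeR adjusted p = 0.136, 0.120 and 0.159), while the line difference was called without each library in turn. The THP-1 call of TRIM22 was also lost on log2(FPKM + 1) and log2(FPKM + 0.1) (limma adjusted p = 0.0571 and 0.103).

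The RNA sensor gene DDX58 had 27.7, 25.2 and 28.1 CPM in THP-1 with LAA, against 17.1, 14.4 and 18.3 CPM with vehicle. For DDX58, MOLM-13 had 10.2, 12.1 and 11.5 CPM with LAA, against 13.5, 14.3 and 12.8 CPM with vehicle. Its effect was 0.70 in THP-1 (edgeR adjusted p = 0.00174) and -0.26 in MOLM-13 (edgeR adjusted p = 0.287). The line difference was 0.95 ± 0.16 (SE; edgeR adjusted p = 0.00954), and it was not called without THP-1 LAA replicate 3 (0.92, edgeR adjusted p = 0.0596).

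The list of interferon effectors held 56 tested genes, and 54 of them had a line difference above 0, as did 49.9% of all genes tested. Their median line difference was 0.49, against -0.000171 over all genes tested. It came to 0.42 over the 34 members that are not line markers. Line markers are genes at least 2-fold apart between the olaparib libraries of the lines at an adjusted p under 0.05. Of the 56 members 2 were called, IFI44L and TRIM22, and 39 had an unadjusted p under 0.05, beside 7.18% of all genes tested. The count of 2 was 10 without MOLM-13 LAA replicate 3, 5 without MOLM-13 vehicle replicate 1, 5 without THP-1 vehicle replicate 1 and 4 without MOLM-13 LAA replicate 2. It was 8 with DESeq2, 15 with no filter on low counts, 4 in the fit of 24 libraries, 1 without line markers and 0 without genes called between the lines at any fold. In THP-1, 35 members were called higher with LAA and 0 lower, with a median effect of 0.61, and in MOLM-13, 9 were called higher and 2 lower (TRIM22 and GBP4), with a median of 0.09. Over all genes tested 0.599% were called higher and 0.284% lower in THP-1, and 1.23% higher and 1.48% lower in MOLM-13. The 9 members called higher in MOLM-13 were all among the 35. Their count was 4 without MOLM-13 vehicle replicate 1, 4 on log2(FPKM + 1), 2 without line markers and 1 without genes called between the lines at any fold. The count of 35 fell to 23 without THP-1 vehicle replicate 2, 23 without THP-1 vehicle replicate 3 and 21 without THP-1 LAA replicate 3. Across the alternatives that left out no library, the lowest value of this THP-1 count was 1. Some of these alternatives leave out line markers, 22 of the 56 members, or genes called between the lines at any fold, IFI44L and TRIM22 among them. Such alternatives remove members of this list by construction. The summed level of the list was 4082 to 4446 CPM with LAA and 2581 to 2802 CPM with vehicle in THP-1, and 1815 to 1910 CPM with LAA and 1618 to 1716 CPM with vehicle in MOLM-13.

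**Figure D3:**
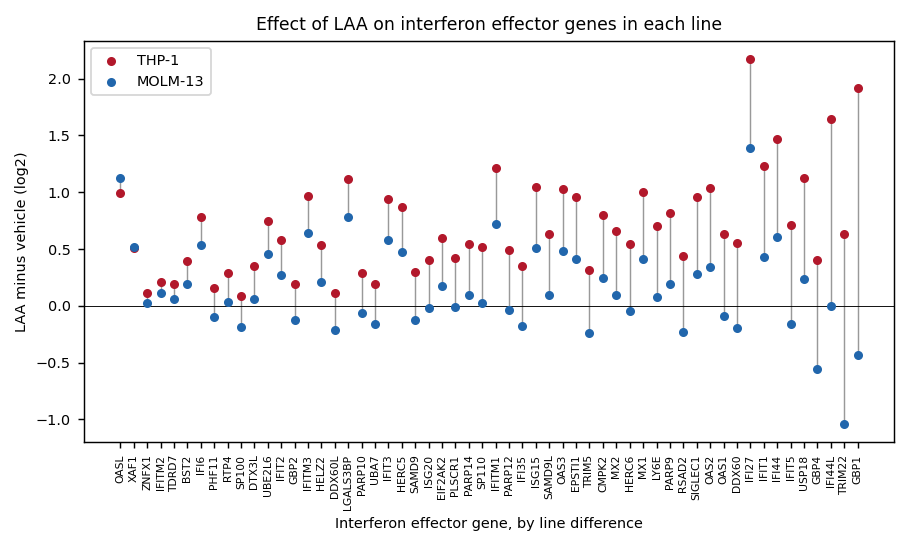
Effect of LAA (log2 of LAA over vehicle) on the 56 tested interferon effectors in THP-1 (red) and MOLM-13 (blue), ordered by the line difference, which is the length of each grey line. THP-1 lies above MOLM-13 for 54 of 56 genes, and the exceptions are OASL and XAF1. IFI44L and TRIM22 are the members with a called line difference.

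Single effectors outside the called set were named after their values were seen. IFI27, an interferon-induced protein of mitochondria and the nuclear envelope, had 108, 114 and 132 CPM in THP-1 with LAA, against 29.1, 24.5 and 24.8 CPM with vehicle. IFI27 in MOLM-13 had 8.29, 6.94 and 12.1 CPM with LAA, against 1.79, 2.65 and 5.88 CPM with vehicle. It rose in both lines, by 2.17 in THP-1 (edgeR adjusted p = 1.27e-06) and by 1.39 in MOLM-13 (edgeR adjusted p = 0.00407) on the log2 scale. The line difference of 0.78 had a 95% interval of 0.10 to 1.47 and was not called (edgeR adjusted p = 0.635).

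OAS2, which makes the 2-5A messenger that activates RNase L, had 183, 172 and 195 CPM in THP-1 with LAA, against 102, 76.4 and 88.7 CPM with vehicle. MOLM-13 libraries held OAS2 at 35.4, 37.4 and 37.7 CPM with LAA, against 24.2, 33.3 and 30.3 CPM with vehicle. LAA libraries lay above vehicle libraries in both lines. The effect was 1.03 in THP-1 (edgeR adjusted p = 5.64e-06) and 0.34 in MOLM-13 (edgeR adjusted p = 0.110), and the line difference of 0.69 ± 0.15 was not called (SE; edgeR adjusted p = 0.0953). It was called by DESeq2, with no filter on low counts, and without MOLM-13 vehicle replicate 1, MOLM-13 LAA replicate 3 or THP-1 vehicle replicate 1. OAS1, of the same family, had a THP-1 effect of 0.64 and a line difference of 0.73 (edgeR adjusted p = 0.00278 and 0.101). The line difference of OAS1 was called by DESeq2, with no filter, in the fit of 24 libraries, and without MOLM-13 LAA replicate 2 or 3 or THP-1 vehicle replicate 1. USP18, the protease that removes ISG15 from proteins, had a THP-1 effect of 1.12 and a line difference of 0.88 (edgeR adjusted p = 0.000126 and 0.188). IFIT1, which binds viral RNA, had a THP-1 effect of 1.23 and a line difference of 0.80 (edgeR adjusted p = 1.73e-05 and 0.273). The ubiquitin-like ISG15 had a THP-1 effect of 1.04 and a line difference of 0.53 (edgeR adjusted p = 9.13e-06 and 0.374). The virus entry inhibitor IFITM1 had a THP-1 effect of 1.21 and a line difference of 0.50 (edgeR adjusted p = 1.27e-06 and 0.406). Without MOLM-13 LAA replicate 3 the line differences of ISG15 and IFITM1 were called, and with no filter those of IFI27, USP18, IFIT1 and ISG15.

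GBP4, an interferon-inducible GTPase, had 10.3, 10.1 and 11 CPM in THP-1 with LAA, against 9.05, 7.58 and 7.05 CPM with vehicle. The MOLM-13 values of GBP4 were 6.86, 6.73 and 6.88 CPM with LAA, against 9.37, 11.6 and 9.30 CPM with vehicle. Its groups separated in opposite directions, as for TRIM22. The THP-1 effect was 0.40 (edgeR adjusted p = 0.265), and the line difference of 0.96 ± 0.20 was not called (SE; edgeR adjusted p = 0.0681). It was called by DESeq2, with no filter, in the fit of 24 libraries, and without MOLM-13 LAA replicate 3 or THP-1 vehicle replicate 1. The fall in MOLM-13, -0.56 on the log2 scale (edgeR adjusted p = 0.0347), lost its call without MOLM-13 vehicle replicate 2 or 3 or any one MOLM-13 LAA library (edgeR adjusted p = 0.0560 to 0.206). OASL rose in both lines, by 0.99 in THP-1 and by 1.13 in MOLM-13 (edgeR adjusted p = 0.0162 and 0.0130), with a line difference of -0.14 and a 95% interval of -0.80 to 0.52. Leaving out vehicle replicate 2 or 3 or LAA replicate 2 or 3 of THP-1 ended the OASL call there (edgeR adjusted p = 0.0541 to 0.153). In MOLM-13 it was lost without MOLM-13 vehicle replicate 1 or 2 (edgeR adjusted p = 0.0789 and 0.0581).

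Upstream of the effectors, the list of nucleic acid sensors held 21 tested genes, with DDX58 the 1 called and a median line difference of 0.35. The median was 0.17 without MOLM-13 LAA replicate 3, 0.20 with the stricter filter and 0.15 on log2(FPKM + 1). In THP-1, 4 sensors were called higher with LAA (0.599% of all genes tested), and in MOLM-13, 2 were called lower (1.48% of all genes tested). The DNA sensor CGAS had a line difference of 0.25 and its adaptor STING (TMEM173 in the files) -0.16, and neither was called (edgeR adjusted p = 0.694 and 0.786). The signalling list of 22 genes had 0 called, 5 at an unadjusted p under 0.05, and a median of 0.07. IRF7, which drives interferon genes, had a THP-1 effect of 0.56 and a line difference of 0.67 (edgeR adjusted p = 0.0135 and 0.175). That difference was called by DESeq2, with no filter and without MOLM-13 LAA replicate 3, and the THP-1 call ended without vehicle replicate 2 or 3 or LAA replicate 2 or 3 of THP-1 (edgeR adjusted p = 0.0642 to 0.139). None of the 10 interferon genes examined had enough counts to be tested: IFNL1 had 8 counts over all 12 libraries, IFNB1 had 6, IFNW1 had 2, and the other 7 had 0.

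The genes with a called line difference that are neither line markers nor interferon genes were MFNG, LYZ, TNF, CD209, PDLIM1 and GABRA4. MFNG, a glycosyltransferase that modifies Notch receptors (chr22:37469063-37486401), had 7.95, 11.4 and 8.85 CPM in THP-1 with LAA, against 6.4, 7.27 and 8.24 CPM with vehicle. MOLM-13 cells gave MFNG values of 1.59, 1.5 and 2.28 CPM with LAA, against 10.6, 6.88 and 9.10 CPM with vehicle. The 3 MOLM-13 LAA libraries stood below the other 9, while the vehicle libraries of the lines overlapped. MFNG fell by 2.29 on the log2 scale in MOLM-13 (edgeR adjusted p = 1.07e-06), the THP-1 effect was 0.36 (edgeR adjusted p = 0.500), and the line difference was 2.65 ± 0.29, with the smallest adjusted p of all genes (SE; edgeR adjusted p = 9.33e-05).

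LYZ encodes lysozyme, the secreted antibacterial enzyme of monocytes (chr12:69348341-69354234). It had 199, 173 and 200 CPM in THP-1 with LAA, against 139, 154 and 148 CPM with vehicle. For LYZ, MOLM-13 had 99.2, 104 and 89.0 CPM with LAA, against 125, 145 and 145 CPM with vehicle. Treated libraries were above vehicle in THP-1 and below vehicle in MOLM-13, with no overlap in either line. The effect was 0.37 in THP-1 (edgeR adjusted p = 0.0261) and -0.50 in MOLM-13 (edgeR adjusted p = 0.00113), and the line difference was 0.87 ± 0.12 (SE; edgeR adjusted p = 0.000468). The THP-1 call alone was lost without any one THP-1 library except LAA replicate 2 (edgeR adjusted p = 0.0787 to 0.189), and the line difference kept its call throughout. The THP-1 call of LYZ was also lost with total counts (edgeR adjusted p = 0.0523). On log2(FPKM + 1) and log2(FPKM + 0.1) it was lost as well (limma adjusted p = 0.0679 and 0.0725).

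TNF, the inflammatory cytokine (chr6:31575567-31578336), had 15.9, 21.9 and 21.2 CPM in THP-1 with LAA, against 20.6, 19.5 and 25.2 CPM with vehicle. TNF in MOLM-13 had 14, 13.4 and 12.6 CPM with LAA, against 35.0, 29.3 and 28.1 CPM with vehicle. The THP-1 groups overlapped and the MOLM-13 groups did not. TNF fell by 1.21 on the log2 scale in MOLM-13 (edgeR adjusted p = 9.65e-06), its THP-1 effect was -0.15 (edgeR adjusted p = 0.746), and the line difference was 1.06 ± 0.18 (SE; edgeR adjusted p = 0.0109). The line difference lost its call when vehicle replicate 2 of THP-1 (0.99, edgeR adjusted p = 0.060) was left out, or LAA replicate 3 of THP-1 (1.00, edgeR adjusted p = 0.0682). The call was also lost on log2(FPKM + 1) and log2(FPKM + 0.1) (0.96 and 1.04, limma adjusted p = 0.0646 and 0.0682). On the list of NF-kB and inflammatory mediators TNF was the 1 gene called of 25 tested, and the median was 0.02.

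CD209, the lectin receptor DC-SIGN of macrophages and dendritic cells, had 50.1, 55.9 and 52.5 CPM in THP-1 with LAA, against 57.5, 53.5 and 50.9 CPM with vehicle. MOLM-13 libraries held CD209 at 48.1, 47.1 and 42.2 CPM with LAA, against 71.5, 85.5 and 68.6 CPM with vehicle. Its THP-1 effect was -0.03 (edgeR adjusted p = 0.938). The line difference was 0.68 ± 0.13 (SE; edgeR adjusted p = 0.0354), and this call was lost when 7 of the 12 libraries were left out in turn (edgeR adjusted p up to 0.173). These were all 3 THP-1 LAA libraries, THP-1 vehicle replicates 2 and 3, MOLM-13 LAA replicate 1 and MOLM-13 vehicle replicate 2, with line differences of 0.57 to 0.71. CD209 also lost its call with total counts, on log2(FPKM + 1) and log2(FPKM + 0.1), with the replicate block and with line markers left out. PDLIM1, a cytoskeletal adaptor, had 87.8, 107 and 96.1 CPM in THP-1 with LAA, against 93.8, 98.8 and 96.9 CPM with vehicle. The MOLM-13 values of PDLIM1 were 98.2, 95.1 and 108 CPM with LAA, against 183, 156 and 160 CPM with vehicle. Only the MOLM-13 vehicle libraries of PDLIM1 stood apart, its THP-1 effect was 0.00 (edgeR adjusted p = 0.992), and its line difference was 0.73 ± 0.12 (SE; edgeR adjusted p = 0.00649). GABRA4, a subunit of the GABA-A receptor, was close to the detection limit, with 0.976, 0.461 and 0.843 CPM in THP-1 with LAA and 0.589, 0.356 and 0.257 CPM with vehicle. In MOLM-13 it had 0.205, 0.259 and 0.0876 CPM with LAA and 2.47, 3.05 and 1.43 CPM with vehicle. Its THP-1 effect was 0.89 (edgeR adjusted p = 0.555). The line difference was 4.52 ± 0.73 (SE; edgeR adjusted p = 0.00648) and 0.27 on the log2(FPKM + 1) scale, where it was not called (limma adjusted p = 0.217).

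The 3 MOLM-13 LAA libraries lay below all 6 THP-1 libraries for 7 of the 18 genes: MFNG, TRIM22, LYZ, TNF, CD209, DDX58 and IFI44L. The 3 MOLM-13 vehicle libraries lay below all 6 as well for TRIM22, DDX58 and IFI44L. For PDLIM1, GABRA4 and 6 line markers the MOLM-13 LAA libraries overlapped the THP-1 libraries, and for 3 line markers they lay above them. IFI44L is itself a line marker, higher in THP-1.

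**Figure D4:**
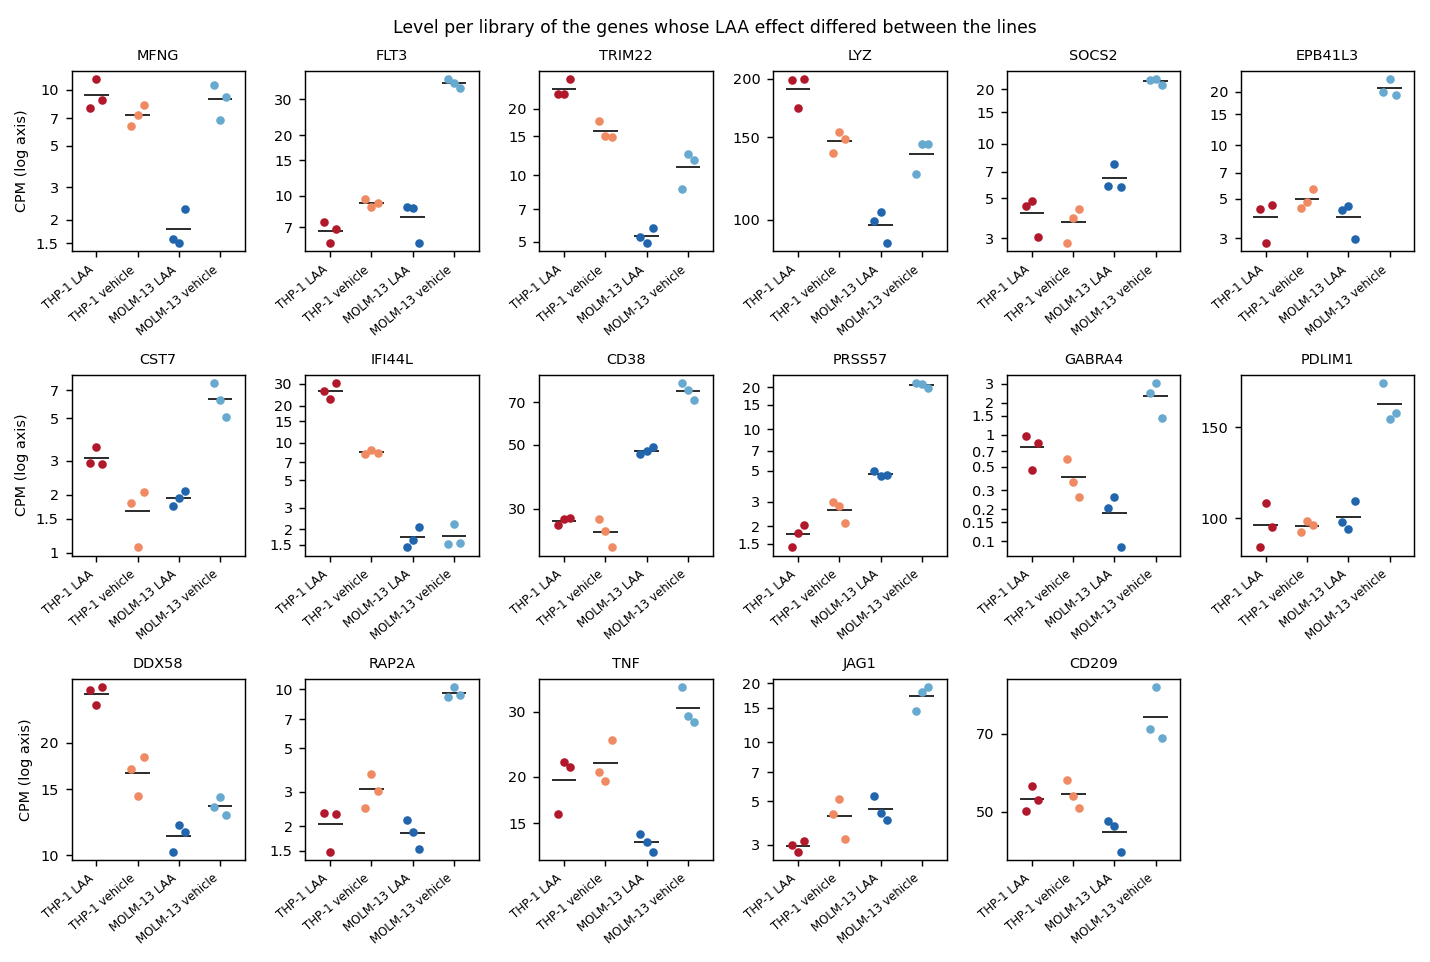
Level in each of the 12 libraries (CPM, log axis) of 17 of the 18 genes with a called line difference, ordered by adjusted p. Points are libraries and lines are means of 3. In most panels the MOLM-13 LAA libraries lie below the MOLM-13 vehicle libraries, and IFI44L is the exception in which LAA and vehicle overlap in MOLM-13.

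Of the 18 genes 10 were line markers (0.904% of genes tested there), IFI44L and 9 that were higher in the MOLM-13 olaparib libraries. Among these 9 were FLT3, SOCS2, CST7, EPB41L3, CD38, PRSS57, RAP2A and JAG1. FLT3, the receptor tyrosine kinase of early myeloid cells (chr13:28003274-28100592), had 7.41, 5.84 and 6.84 CPM in THP-1 with LAA, against 9.68, 8.85 and 9.21 CPM with vehicle. MOLM-13 cells gave FLT3 values of 8.86, 8.75 and 5.87 CPM with LAA, against 37.9, 36.2 and 34.2 CPM with vehicle. With LAA the MOLM-13 libraries reached the THP-1 range. FLT3 fell by 2.21 on the log2 scale in MOLM-13 (edgeR adjusted p = 3.27e-09), the THP-1 effect was -0.47 (edgeR adjusted p = 0.186), and the line difference was 1.74 ± 0.20 (SE; edgeR adjusted p = 0.000149). Between the lines, THP-1 minus MOLM-13, FLT3 differed by -0.22 with LAA (edgeR adjusted p = 0.520) and by -1.96 with vehicle (edgeR adjusted p = 2.54e-09).

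SOCS2, an inhibitor of cytokine receptor signalling, had 4.54, 4.82 and 3.04 CPM in THP-1 with LAA, against 2.82, 3.86 and 4.38 CPM with vehicle. For SOCS2, MOLM-13 had 5.84, 7.71 and 5.74 CPM with LAA, against 22.7, 22.9 and 21.0 CPM with vehicle. The THP-1 groups overlapped with an effect of 0.17 (edgeR adjusted p = 0.833), and the line difference was 1.95 ± 0.26 (SE; edgeR adjusted p = 0.000468). CST7, which encodes the protease inhibitor cystatin F, had 2.93, 3.53 and 2.90 CPM in THP-1 with LAA, against 1.81, 1.07 and 2.06 CPM with vehicle. CST7 in MOLM-13 had 1.74, 1.92 and 2.10 CPM with LAA, against 7.62, 6.24 and 5.09 CPM with vehicle. The groups of CST7 separated in both lines in opposite directions, with an effect of 0.91 in THP-1 that was not called (edgeR adjusted p = 0.109) and a line difference of 2.62 ± 0.35 (SE; edgeR adjusted p = 0.000468).

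EPB41L3, a protein of the membrane skeleton, had 4.39, 2.82 and 4.64 CPM in THP-1 with LAA, against 4.46, 4.78 and 5.71 CPM with vehicle. MOLM-13 libraries held EPB41L3 at 4.35, 4.56 and 2.98 CPM with LAA, against 20.1, 23.7 and 19.2 CPM with vehicle. Its THP-1 effect was -0.33 (edgeR adjusted p = 0.586). The line difference was 2.07 ± 0.27 (SE; edgeR adjusted p = 0.000468), and 3 of its 4 groups overlapped. CD38, the surface enzyme that consumes NAD, had 26.3, 27.6 and 27.9 CPM in THP-1 with LAA, against 27.8, 25.2 and 22.1 CPM with vehicle. The MOLM-13 values of CD38 were 46.4, 47.7 and 49.0 CPM with LAA, against 81.5, 77.3 and 71.4 CPM with vehicle. The MOLM-13 libraries with LAA thus stayed above THP-1 for CD38, the THP-1 effect was 0.12 (edgeR adjusted p = 0.718), and the line difference was 0.80 ± 0.13 (SE; edgeR adjusted p = 0.00648).

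PRSS57, a serine protease of neutrophil granules, had 1.41, 1.79 and 2.06 CPM in THP-1 with LAA, against 2.99, 2.80 and 2.11 CPM with vehicle. In MOLM-13 it had 5.02, 4.61 and 4.64 CPM with LAA, against 21.4, 21.2 and 19.6 CPM with vehicle. LAA libraries lay below vehicle libraries in both lines. The THP-1 effect was -0.59 (edgeR adjusted p = 0.232), and the line difference was 1.53 ± 0.25 (SE; edgeR adjusted p = 0.00648), not called without THP-1 LAA replicate 3 (1.39, edgeR adjusted p = 0.0639). CDKN1A, an inhibitor of cyclin-dependent kinases, had a line difference of 0.14 with a 95% interval of -0.06 to 0.34.

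RAP2A, a small GTPase, had 2.34, 1.49 and 2.29 CPM in THP-1 with LAA, against 2.48, 3.71 and 3.04 CPM with vehicle. For RAP2A, MOLM-13 had 2.15, 1.86 and 1.53 CPM with LAA, against 9.15, 10.2 and 9.38 CPM with vehicle. Its THP-1 effect was -0.58 (edgeR adjusted p = 0.323). The line difference was 1.79 ± 0.31 (SE; edgeR adjusted p = 0.0109) and was not called without THP-1 LAA replicate 1 or 3 (1.68 and 1.69, edgeR adjusted p = 0.0621 and 0.0682). RAP2A was also not called on log2(FPKM + 0.1) or with the replicate block. The Notch ligand gene JAG1 had 2.98, 2.77 and 3.14 CPM in THP-1 with LAA, against 4.29, 5.14 and 3.19 CPM with vehicle. JAG1 in MOLM-13 had 5.32, 4.35 and 3.98 CPM with LAA, against 14.4, 18.1 and 19.0 CPM with vehicle. The THP-1 effect of JAG1 was -0.51 (edgeR adjusted p = 0.316). Its line difference was 1.40 ± 0.26 (SE; edgeR adjusted p = 0.0220), and the call was lost when any of 5 libraries was left out: THP-1 LAA replicate 1 or 3, THP-1 vehicle replicate 3, or MOLM-13 vehicle replicate 2 or 3 (1.25 to 1.40, edgeR adjusted p = 0.0694 to 0.107). The JAG1 call was also lost on log2(FPKM + 0.1) and with the replicate block.

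The whole set of 55 line markers that were higher in the MOLM-13 olaparib libraries had a median LAA effect of -0.05 in THP-1 and of -1.19 in MOLM-13, where 32 were called lower and 1 higher. Their median line difference was 1.14, and 9 were called (16.4%). Among 81 tested line markers that were higher in THP-1 the median line difference was -0.04, with 1 called. In THP-1 their median LAA effect was 0.11, with 22 called higher and 2 lower (0.599% and 0.284% of all genes tested). In MOLM-13 it was 0.27, with 11 called higher and 2 lower (1.23% and 1.48%). With all line markers left out of the test 7 of the 18 genes were called, and with every gene called between the olaparib libraries at any fold (3.51%, 2.03% higher in THP-1) left out 4 were called. These 4 were LYZ, MFNG, TNF and GABRA4, and this second alternative was added after the data had been seen. The share of the line difference at the 9 marker genes that moves with the summed level of the 16 MOLM-13 genes was not tested.

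Genes that handle LAA or act with it were not called. The TET enzymes TET1, TET2 and TET3 had line differences of 0.22, -0.02 and 0.04, with 95% intervals of -0.40 to 0.84, -0.40 to 0.35 and -0.37 to 0.45. The glycosylase TDG, which removes the oxidized bases, had 0.18, and the DNA methyltransferases DNMT1, DNMT3A and DNMT3B had 0.08, -0.22 and 0.08. On the list of DNA methylation and its oxidation 0 of 17 genes were called and 2 had an unadjusted p under 0.05, with a median of 0.08. The ascorbate transporter SLC23A2 had a line difference of 0.14 and SLC2A1, a glucose transporter that also takes up oxidized ascorbate, -0.28 (edgeR adjusted p = 0.917 and 0.534). Catalase (CAT), which breaks down hydrogen peroxide, had -0.18, and the heme oxygenase HMOX1 0.40 (edgeR adjusted p = 0.694 and 0.749). On the list of ascorbate uptake and peroxide handling 0 of 16 were called and 3 had an unadjusted p under 0.05. Of 30 tested dioxygenases beyond TET 0 were called, with 4 at an unadjusted p under 0.05. The largest line difference on that list was 4.45, and 1 member was called in 3 of 23 alternatives. KDM6A was called without THP-1 vehicle replicate 2. Its mean was 0.178 CPM with LAA and 1.42 CPM with vehicle in MOLM-13, and 0.194 and 0.0678 CPM in THP-1, near the detection limit.

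Other lists had few called genes. FLT3 was the 1 gene called of 32 in the program of the KMT2A fusion, whose median was 0.12, and LYZ the 1 called of 34 in monocyte differentiation, whose median was 0.01. MEIS1, a homeobox partner of the fusion program, had 0.195, 0 and 0 CPM in THP-1 with LAA, against 0.126, 0.203 and 0.0515 CPM with vehicle. MOLM-13 libraries held MEIS1 at 0.307, 0.569 and 0.394 CPM with LAA, against 3.41, 4.76 and 2.94 CPM with vehicle. MEIS1 was thus near 0 in THP-1, and its line difference of 2.20 had a 95% interval of -0.41 to 4.81 and was -1.39 without THP-1 LAA replicate 1. The transcription factor gene MYC had a line difference of 0.07 and was not called. Of 20 tested MHC class I genes, which present antigen, 0 were called and 6 had an unadjusted p under 0.05, with a median of 0.10. The MHC class II list had 0 of 15 called, 0 at an unadjusted p under 0.05, and a median of 0.15. The cholesterol list had 0 of 24 called, 2 at an unadjusted p under 0.05, and a median of -0.08. All 13 mitochondrially encoded genes had a line difference below 0, with a median of -0.22, and 0 were called, 5 having an unadjusted p under 0.05. Their share of counts in each group is given above.

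Some responses were shared, and 37 genes were called higher with LAA in both lines (38.1% of those higher in THP-1 and 18.6% of those higher in MOLM-13). A further 22 were called lower in both (47.8% of those lower in THP-1 and 9.17% of those lower in MOLM-13). AKR1C3, an aldo-keto reductase, had 8.73, 10.6 and 10.8 CPM in THP-1 with LAA, against 3.33, 3.61 and 4.32 CPM with vehicle. The MOLM-13 values of AKR1C3 were 7.99, 7.35 and 8.58 CPM with LAA, against 2.20, 2.60 and 3.74 CPM with vehicle. The line difference of -0.06 had a 95% interval of -0.61 to 0.48. This value is uncertain, because reads can be divided among the very similar AKR1C paralogs.

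HLA-DRA, an MHC class II chain, had 17.8, 25.3 and 24.2 CPM in THP-1 with LAA, against 8.97, 8.80 and 9.57 CPM with vehicle. In MOLM-13 it had 14, 15.7 and 15.9 CPM with LAA, against 6.19, 7.52 and 7 CPM with vehicle. It rose in both lines (edgeR adjusted p = 6.91e-06 in THP-1 and 4.86e-05 in MOLM-13), and the line difference of 0.15 had a 95% interval of -0.26 to 0.56. The lipid carrier APOE rose by 0.82 in THP-1 and by 0.93 in MOLM-13, with a line difference of -0.12 and a 95% interval of -0.51 to 0.28. S100A9, an alarmin of myeloid cells, had 309, 327 and 340 CPM in THP-1 with LAA, against 240, 221 and 260 CPM with vehicle. MOLM-13 cells gave S100A9 values of 408, 364 and 435 CPM with LAA, against 225, 189 and 215 CPM with vehicle. The log2 effect was 0.43 in THP-1 and 0.94 in MOLM-13 (edgeR adjusted p = 0.00976 and 6.68e-07). The THP-1 call ended without vehicle replicate 1 or 2 or LAA replicate 3 of THP-1 (edgeR adjusted p = 0.0530 to 0.119), and the line difference of -0.51 was not called (edgeR adjusted p = 0.138). It was called by DESeq2, with no filter and without MOLM-13 LAA replicate 2. Its partner S100A8 had a line difference of -0.50 (edgeR adjusted p = 0.273), called with no filter.

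The same contrast can be formed in the other 12 libraries as the effect of LAA on top of olaparib, and none of those libraries enters the comparison above. There 197 of 16342 genes were called (1.21%), 138 of them in the positive direction (0.844%) and 59 in the negative one (0.361%). All 18 genes were tested there, 18 had a positive line difference and 13 were called. The line markers were chosen in the olaparib libraries of this second set, so the values of the 10 line markers there are not independent of that choice. The 8 other genes were set apart by the same choice, so their values there are not independent of it either. The doubt about the MOLM-13 label holds here too. The 16 genes nearly silent in THP-1 summed to 4.67 ± 0.74 CPM in MOLM-13 with both compounds and 19.4 ± 6.27 CPM with olaparib alone (SD). Among the 8 other genes, MFNG differed by 3.11 ± 0.28 (edgeR adjusted p = 5.82e-06), LYZ by 0.87 ± 0.10 (edgeR adjusted p = 3.70e-05) and TRIM22 by 1.31 ± 0.18 (edgeR adjusted p = 0.000280), each ± SE. TNF, DDX58 and PDLIM1 were also called (edgeR adjusted p = 0.000280, 0.00292 and 0.000855), whereas CD209 and GABRA4 were not (edgeR adjusted p = 0.106 and 0.887).

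The effects behind the difference were not the same in both sets for every gene. On top of olaparib LYZ had an effect of 1.03 in THP-1 and 0.16 in MOLM-13, where it was not called, and TRIM22 rose in both lines, by 1.86 in THP-1 and by 0.55 in MOLM-13. IFI44L rose by 3.66 in THP-1 and by 2.89 in MOLM-13, and its line difference of 0.77 ± 0.31 was not called there (SE; edgeR adjusted p = 0.232). MFNG rose by 1.13 in THP-1 and fell by 1.98 in MOLM-13. Of the 56 interferon effectors 19 were called positive and 0 negative there, with a median line difference of 0.49, and the median effects were 1.67 in THP-1 and 0.91 in MOLM-13. Of the 18 genes 12 were called lower in MOLM-13 on top of olaparib, beside 5.18% of all genes tested, and 9.99% were called there in either direction. In THP-1, 11.1% of all genes were called higher.

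**Figure D5:**
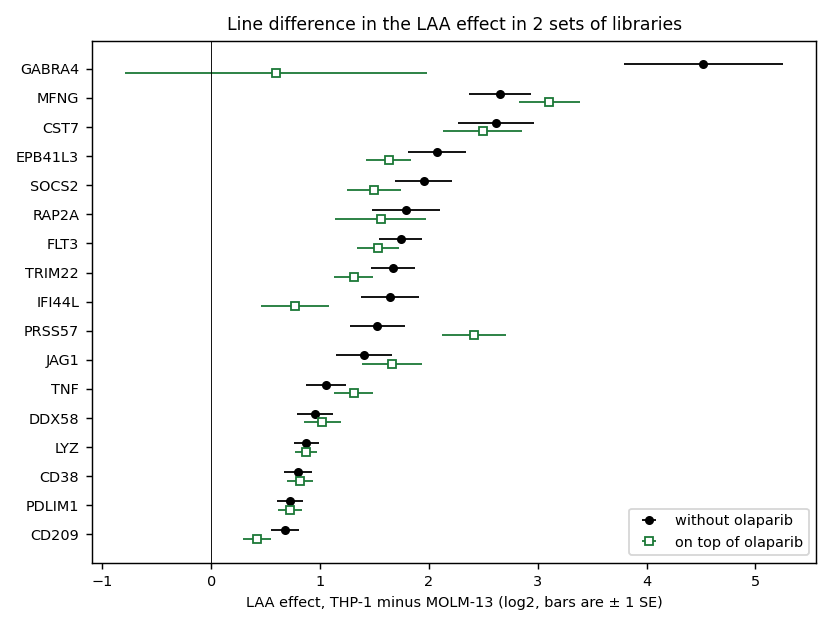
Line difference in the LAA effect (THP-1 minus MOLM-13, log2) of 17 of the 18 genes without olaparib (filled points) and on top of olaparib (open squares), with bars of ± 1 SE. Each set used 12 libraries and no library was in both. All 17 values are positive in both sets.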

How the data were processed

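PolyA-selected RNA was measured in 24 libraries, of which 12 enter the comparison. HISAT2, SAMtools, DESeq2 and build hg38 are named per the submitters' processing notes. Their versions and the tool and annotation used for counting are not given. The kit named in the labels' protocols does not mark strand, so reads of overlapping or antisense genes cannot be told apart. The deposited counts are whole numbers per gene and library without normalization. The deposited FPKM values are the authors' own, scaled by gene length and library size. Gene names, coordinates and biotypes are those of the deposited tables. List members were matched by symbol, with current names of STING, RIG-I and IL-8 mapped to those in the tables.

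Counts were fitted as 4 group means over 12 libraries in edgeR 4.0.16 (R 4.3.3) with filterByExpr at default settings, TMM scaling and its quasi-likelihood test. Adjustment was by Benjamini-Hochberg over 16181 genes, at a threshold of 0.05. Levels are CPM scaled by TMM over 24 libraries. The script was tested on simulated data of 16181 genes, with equal baseline levels in all groups and changes in the THP-1 LAA group only. Of 100 genes changed 2-fold 64 were recovered, and of 100 changed 4-fold 78, beside 10 false calls. The data differ from this setting: vehicle libraries of the lines differed for 15 of the 18 called genes, and 16 were called lower in MOLM-13. Same-numbered LAA and vehicle libraries had deviations correlated at r between -0.0795 and 0.0999. For MOLM-13 replicate 2 this exceeded the highest r with another number (0.0999 against 0.0318), and for all other replicates it did not. With 3 libraries per group these values cannot show whether same-numbered libraries were paired, and the main fit had no replicate block. No 2 libraries of a group agreed within sampling noise.

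The members and gene lists were chosen with earlier results of these data known. Named genes are the 10 largest called line differences per direction among protein-coding genes whose mean log2 CPM reached 1 and whose LAA and vehicle libraries were apart in at least 1 line, the same without line markers, up to 4 called members per list, a fixed set of 22 genes, and genes called in opposite directions. The other called genes were named too, except 1 that is not reported here. AKR1C3, HLA-DRA, APOE and the single interferon effectors were chosen after their values were seen, as was the comparison on top of olaparib. Alternatives were DESeq2 1.42.0, other scalings and filters, limma 3.58.1 on log2(FPKM + 1) and log2(FPKM + 0.1), a fit of 24 libraries, a replicate block, line markers left out and each library left out in turn.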

Additional observations from a re-analysis of the deposited data

Results flagged for a closer look

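The genes with a called line difference are listed here because the test of the difference between the lines itself (edgeR, adjusted p under 0.05) found unequal LAA effects. The line differences, THP-1 minus MOLM-13 on the log2 scale, were MFNG 2.65, FLT3 1.74, TRIM22 1.67, LYZ 0.87, EPB41L3 2.07, SOCS2 1.95, CST7 2.62, CD38 0.80, IFI44L 1.64, PRSS57 1.53, GABRA4 4.52, PDLIM1 0.73, DDX58 0.95, TNF 1.06, RAP2A 1.79, JAG1 1.40 and CD209 0.68. In the line markers among them that were higher in the MOLM-13 olaparib libraries, the lower level with LAA in MOLM-13 stood beside a summed level of 16 genes nearly silent in THP-1 at 20.6% of vehicle, and the part of this in the differences was not tested. MFNG, TRIM22, LYZ, TNF, CD209 and DDX58 were not line markers, and their MOLM-13 LAA libraries lay below all 6 THP-1 libraries. TRIM22, CD209 and DDX58 were nevertheless called between the olaparib libraries of the lines, at less than 2-fold. There TRIM22 and DDX58 were higher in THP-1, and CD209 was higher in MOLM-13 (82.1 against 57.6 CPM). For TRIM22 and DDX58 the MOLM-13 vehicle libraries too lay below all 6 THP-1 libraries. DDX58 was not called lower with LAA in MOLM-13. What lowered MFNG, TRIM22, LYZ, TNF and CD209 in the MOLM-13 LAA libraries was not tested.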

How the results depend on the processing

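The 18 called line differences became 48 with DESeq2, 103 with no filter on low counts, 28 on log2(FPKM + 1), 7 without line markers and 4 without genes called between the lines at any fold, and 12 to 37 with 1 library left out. Total counts gave 17, the stricter filter 17, RLE 18, log2(FPKM + 0.1) 19 and the fit of 24 libraries 24. With the replicate block 15 were called, and CD209, JAG1 and RAP2A lost their calls. For LAA against vehicle in THP-1 the 143 called genes became 245 with DESeq2, 245 with no filter, 94 on log2(FPKM + 0.1) and 53 without any-fold genes, and 56 to 253 with 1 library left out. For LAA against vehicle in MOLM-13 the 439 called genes became 691, 659 and 273 with DESeq2, no filter and without any-fold genes, and 187 to 771 with 1 library left out. Leaving genes out removes called genes by construction, and for the other changes the cause was not tested. Of the 18 genes, 10 kept their call in each alternative that tested them. The interferon effector median ranged between 0.40 and 0.53 with 1 library left out and was 0.35 without any-fold genes. Some uncalled line differences changed sign. One of them, MEIS1, was large at 2.20, and it ranged between -1.39 and 2.77 with 1 library left out, reversing without THP-1 LAA replicate 1. With total counts TET2 was 0.0016 and XAF1 0.0059. On log2(FPKM + 1) XAF1 was 0.080, OASL 0.19 and AKR1C3 0.044, on log2(FPKM + 0.1) XAF1 was 0.037, and with the replicate block XAF1 was 0.023. With 1 library left out TET3 ranged between -0.16 and 0.17, SLC23A2 between -0.027 and 0.25, TET2 between -0.17 and 0.083, DNMT3B between -0.017 and 0.22, XAF1 between -0.28 and 0.15, APOE between -0.25 and 0.081, OASL between -0.46 and 0.090, and AKR1C3 between -0.32 and 0.093. GABRA4 and MEIS1, both at few counts, had 95% intervals of 3.00 to 6.05 and -0.41 to 4.81.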
